A study of Homo sapiens with 32 samples.

Results

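Regions of uracil enrichment that lie outside the assembled chromosomes were examined in 15 U-DNA-Seq libraries. They were taken as every region of the 15 replicate region files on a sequence named as unplaced (chrUn) or as random, decoys included and viral sequences left out, and numbered 6126 of 2015148 regions, or 0.304%. Of these, 4089 lay on 1330 decoys, 1110 on 37 random contigs and 927 on 43 unplaced contigs. A random contig is known to belong to a chromosome but has no position on it, and an unplaced contig has no known chromosome. A decoy is human sequence absent from the assembly that is added to the alignment target to hold reads that would otherwise be placed elsewhere. All 3 kinds are rich in satellites and in recently duplicated segments, which are hard to assemble.

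U-DNA-Seq sequences fragmented genomic DNA captured by an inactive form of the uracil-DNA glycosylase UNG that carries a FLAG tag (ΔUNG), and the input DNA is sequenced beside it. The 14 libraries of HCT116, a human colon carcinoma line deficient in mismatch repair (MMR), came from 7 conditions with 2 biological replicates each. WT cells were non-treated and carried no transgene. All other HCT116 cells stably expressed UGI, which blocks the excision enzyme UNG, and were non-treated (NT_UGI), given the nucleoside 5-fluoro-2'-deoxyuridine at 20 µM (5FdUR_UGI) or raltitrexed at 100 nM (RTX_UGI), both for 48 h. Names ending in MMR stand for the same 3 treatments of an MMR proficient variant of the line. K562, a human chronic myelogenous leukemia line, was non-treated, carried no transgene and gave 1 library, so its values have no replicate check. The classes compared were 6 non-treated and 8 drug-treated HCT116 libraries, and UGI is absent from 2 of the 6 and present in all 8.

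Uracil enters DNA in place of thymine when dUTP is incorporated during replication, or arises there by deamination of cytosine. Both drugs inhibit thymidylate synthase, which lowers the supply of TTP relative to dUTP. With uracil-DNA glycosylase inhibited, the uracil is not excised. Satellites that make up much of the constitutive heterochromatin consist of short units in tandem copies, and those of human cells include AT-rich classical satellites, the GGAAT pentamer satellites and the alpha satellite of centromeres.

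To show what lies under these regions, stretches of reference sequence (GRCh38, forward strand) are printed from some of the contigs described below. Each is the middle of the longest run of 100 bp bins that were in a region in most libraries of a class. Capitals mark runs of at least 6 A or T. The first 2 stretches were in regions of all 6 non-treated and no drug-treated library, and their GC contents were 26.3% and 33.3%.
chrUn_KI270749v1:78401-78700: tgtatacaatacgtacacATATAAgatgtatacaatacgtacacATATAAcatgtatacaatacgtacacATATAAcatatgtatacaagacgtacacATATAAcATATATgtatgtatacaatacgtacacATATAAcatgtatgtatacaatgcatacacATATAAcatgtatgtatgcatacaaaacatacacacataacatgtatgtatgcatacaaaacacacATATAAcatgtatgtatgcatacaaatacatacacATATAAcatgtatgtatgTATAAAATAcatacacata
chrUn_KI270746v1:25301-25600: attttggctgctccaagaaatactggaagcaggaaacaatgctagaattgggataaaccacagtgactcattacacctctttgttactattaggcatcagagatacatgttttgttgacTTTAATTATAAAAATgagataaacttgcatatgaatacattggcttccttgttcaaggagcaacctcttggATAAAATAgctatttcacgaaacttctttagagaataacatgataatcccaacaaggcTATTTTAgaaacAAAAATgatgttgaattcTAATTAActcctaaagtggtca

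The next 2 stretches were in regions of drug-treated and of no non-treated libraries. On chr17_GL000205v2_random no more than 6 of the 8 drug-treated libraries shared a bin, and the GC content of that stretch was 43.3%. On chr1_KI270711v1_random all 4 RTX libraries shared 14.3 kb, and the GC content of its middle was 37.0%.
chr17_GL000205v2_random:177951-178250: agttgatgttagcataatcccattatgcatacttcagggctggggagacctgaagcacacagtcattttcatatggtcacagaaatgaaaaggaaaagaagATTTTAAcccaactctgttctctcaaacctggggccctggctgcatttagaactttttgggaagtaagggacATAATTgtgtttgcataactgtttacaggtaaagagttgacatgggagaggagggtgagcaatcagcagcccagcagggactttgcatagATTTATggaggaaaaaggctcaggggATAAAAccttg
chr1_KI270711v1_random:23201-23500: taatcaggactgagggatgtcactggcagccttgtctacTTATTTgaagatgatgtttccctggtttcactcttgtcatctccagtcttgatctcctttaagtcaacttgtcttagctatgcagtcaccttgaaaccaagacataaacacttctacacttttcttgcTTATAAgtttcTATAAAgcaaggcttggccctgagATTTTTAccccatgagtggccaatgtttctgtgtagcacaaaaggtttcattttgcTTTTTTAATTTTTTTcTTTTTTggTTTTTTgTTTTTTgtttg

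The last stretch is from chrUn_KI270336v1, an unplaced contig of 1026 bases that was wholly inside a region in all 6 non-treated libraries. It consists of copies of a unit of 42 bases, and 83.0% of its bases equal the base 42 positions further on. Capitals mark an exact copy of ACTGTACATAAAATAT, the most frequent word of 16 letters on the contigs with that unit, and the GC content of the stretch is 23.3%.
chrUn_KI270336v1:364-663: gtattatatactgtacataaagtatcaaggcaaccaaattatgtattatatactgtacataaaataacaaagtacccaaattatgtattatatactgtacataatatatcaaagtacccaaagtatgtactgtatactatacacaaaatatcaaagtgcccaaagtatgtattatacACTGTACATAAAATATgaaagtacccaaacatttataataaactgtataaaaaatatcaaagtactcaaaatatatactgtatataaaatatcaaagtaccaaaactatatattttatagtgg

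Some properties of the files bear on every value below. The log2 value of a region is read as the log2 of enriched over input coverage, averaged over the region, and the lowest value in a file, which is the threshold the authors set for that library, lay between 0.25 and 0.33 in non-treated libraries, between 0.25 and 0.27 in RTX libraries and between 0.13 and 0.25 in 5FdUR libraries. Coverage was smoothed over 5000 bp by the authors, while 1184 of the 1254 decoys whose end could be read from the files were shorter than that, so a decoy was mostly in a region as a whole or not at all. Among 3859 regions on decoys of known length, 3064, or 79.4%, spanned the decoy from end to end, against 38 of the 2037 regions on random and unplaced contigs. The region files carry no read counts, and depth was not used here, so counting error is not covered. The paper states that sequencing was done on a HiSeq or on a Novaseq platform, with different read lengths. The platform of each library was not used here, and the part it has in differences between libraries was not tested.

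A single library stood apart from its condition. On contigs, 5FdUR_UGI replicate 1 had a Jaccard index, the bases shared by a pair of libraries over the bases in either, of 0.277 to 0.325 with the 4 RTX libraries and of 0.0736 to 0.126 with the other 3 5FdUR libraries. Its lowest log2 value was 0.25, as in 3 of the RTX libraries, against 0.13 to 0.20 in the other 5FdUR libraries. Values are therefore given with and without it where it changes a result.

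The number of contig regions was near constant in non-treated cells and spread widely after treatment. The 6 non-treated libraries held 333 to 364 regions on 215 to 245 contigs. The 4 RTX libraries held 203 to 264 regions on 161 to 234 contigs. Among the 5FdUR libraries, replicate 1 of 5FdUR_UGI held 231 regions on 190 contigs, and the other 3 held 737 to 895 regions on 493 to 661 contigs. K562 held 420 regions on 224 contigs. The number of contigs with a region differed by 107.8 between the class means, which was not larger than the spread between libraries (two-sided exact permutation test over 3003 splits, p = 0.232). With regions at a log2 value of 0.35 or more, a value above the threshold of every library, the 5FdUR libraries held 72 to 240 contigs and the non-treated libraries 145 to 225, and the sign of the difference turned (-38.4, p = 0.186 by the same exact test).

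Contigs took up 0.251% ± 0.0117 (SD, n = 6) of all region bases in the non-treated libraries, 0.0976% ± 0.0125 (SD, n = 4) in the RTX libraries and 0.256% ± 0.122 (SD, n = 4) in the 5FdUR libraries. The 4 RTX libraries gave 0.111%, 0.105%, 0.0873% and 0.0866%, and all lay below the 6 non-treated libraries, which ranged from 0.236% to 0.264%. The 5FdUR libraries lay on both sides, at 0.0982% in replicate 1 of 5FdUR_UGI and 0.360%, 0.344% and 0.223% in the others. Over all 8 drug-treated libraries the share was lower by 0.0745 percentage points on average, a difference within the spread of the libraries (exact permutation test, p = 0.141), though not without replicate 2 of 5FdUR_UGI (-0.101, exact p = 0.0245) or replicate 1 of 5FdUR_UGI_MMR (-0.0983, exact p = 0.0355). With regions at a log2 value of 0.35 or more its sign turned (0.0344, exact permutation test, p = 0.969), with 1.25% in 5FdUR_UGI_MMR replicate 2. With RTX as the only drug the difference was -0.154 percentage points (exact permutation test, p = 0.00476), and with 5FdUR as the only drug it was 0.00500 (exact permutation test, p = 0.962). The 5FdUR and RTX libraries differed by 0.159 percentage points (exact permutation test of 4 against 4, p = 0.0857), and without replicate 1 of 5FdUR_UGI by 0.212 (exact permutation test, p = 0.0286). In K562 the share was 0.333%. In bases, contigs held 822 ± 42.1 kb (SD, n = 6) without drug and 914 ± 587 kb (SD, n = 8) with drug, so the sign over all drug-treated libraries was the opposite of that of the share. The RTX libraries held 458 kb to 584 kb and stayed below the non-treated libraries, which held 758 kb to 877 kb.

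The share was lower after treatment on random and unplaced contigs, and on decoys the difference did not pass the test. Random contigs held 0.0736% ± 0.00450 (SD, n = 6) of region bases without drug and 0.0376% ± 0.0260 (SD, n = 8) with drug (exact permutation test, Benjamini-Hochberg adjusted over 3 kinds, p = 0.0225). Unplaced contigs held 0.0669% ± 0.00548 (SD, n = 6) and 0.0231% ± 0.0210 (SD, n = 8), respectively (exact permutation test, adjusted p = 0.00400). The random call was lost with 5FdUR as the only drug (exact permutation test, adjusted p = 0.138), without WT (adjusted p = 0.0515) and in MMR deficient libraries (adjusted p = 0.214), and the unplaced call in MMR deficient libraries (adjusted p = 0.171). Decoys held 0.111% ± 0.00806 (SD, n = 6) and 0.116% ± 0.0705 (SD, n = 8) (exact permutation test, adjusted p = 0.845). In the RTX libraries the share on random contigs was 0.0202% to 0.0210%, and on unplaced contigs 0.00650% to 0.0108%, below every non-treated library. Among the 5FdUR libraries, 2 of 4 reached the non-treated range on random contigs (0.0786% and 0.0772%) and 1 of 4 on unplaced contigs (0.0603%). Decoys accordingly made up 40.9% to 47.0% of contig region bases in the non-treated libraries and 61.4% to 73.6% in the drug-treated libraries, 2 ranges that did not overlap. K562 had 33.7%. The share of a kind is part of a total that the thresholds set, and the difference in kb on random contigs (-46.6 kb, exact permutation test, adjusted p = 0.411) and on unplaced contigs (-100.2 kb, exact permutation test, adjusted p = 0.140) did not pass the test.

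**Figure D1:**
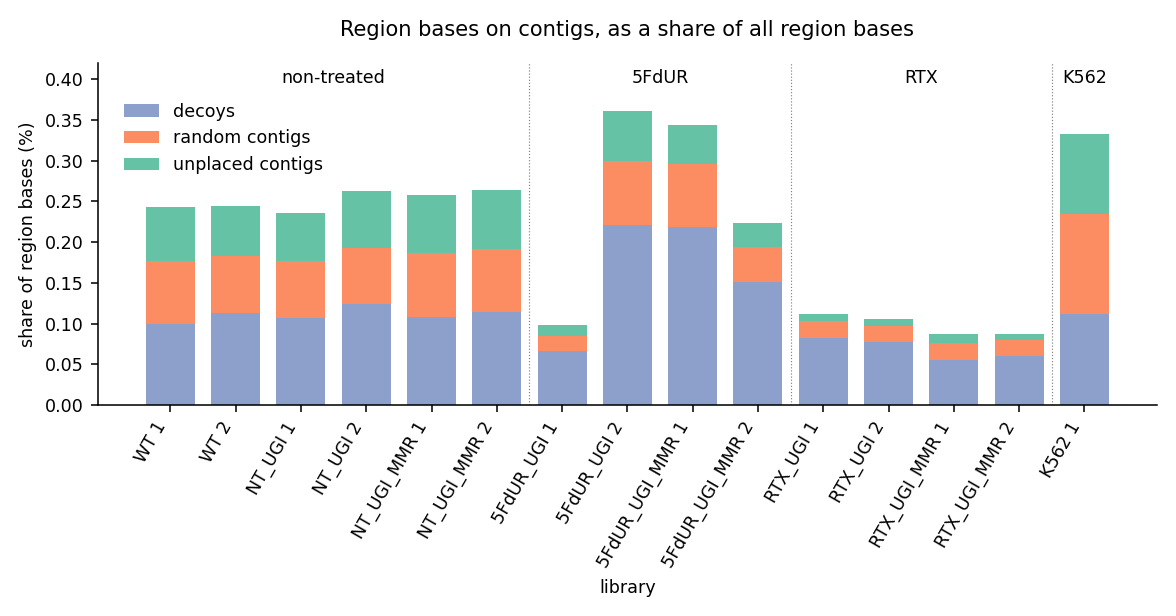
Share of all region bases (percent) on decoys, random contigs and unplaced contigs, stacked, in each of 15 libraries. Non-treated libraries sit between 0.236% and 0.264% in all, RTX libraries between 0.0866% and 0.111%, and 5FdUR libraries on both sides of the non-treated ones.

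Set against the chromosomes, random and unplaced contigs were covered sparsely. Of their 10.97 Mb of known bases, 3.76% to 4.53% were in regions of the non-treated libraries, against 10.9% to 11.3% of the chromosomes. In the RTX libraries the covered part was 1.30% to 1.51% on these contigs and 17.2% to 18.9% on the chromosomes. In the 5FdUR libraries it was 1.51% to 6.32% and 17.1% to 17.8%, respectively. The authors removed reads without a unique position and blacklisted segments, and the part that repeated sequence has in these values was not tested. Of the 169 random and unplaced contigs of the reference, 89 with 825.6 kb had no region in any library, the longest of them 161471 bp.

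Where contigs were in a region, their log2 value was higher than that of chromosomes in non-treated cells. Averaged over the bases in regions, the log2 value was 0.603 ± 0.0380 (SD, n = 6) on contigs and 0.423 ± 0.0319 (SD, n = 6) on chromosomes without drug, and 0.402 ± 0.103 (SD, n = 8) and 0.376 ± 0.0834 (SD, n = 8) with drug. The excess of contigs over chromosomes was 0.17 to 0.20 in the 6 non-treated libraries, 0.030 to 0.092 in the 4 RTX libraries and -0.015 to 0.014 in the 4 5FdUR libraries, and was 0.16 in K562. The classes did not overlap, and the excess was lower by 0.15 after treatment (exact permutation test, p = 0.000333, the smallest that 3003 splits allow). Within libraries the excess averaged 0.092 over the 14 HCT116 libraries (exact sign-flip permutation test, two-sided, p = 0.000977), with 12 of 14 above 0. Decoys had the highest values: at 0.769 ± 0.0567 (SD, n = 6), they exceeded random (0.461 ± 0.0331) and unplaced contigs (0.487 ± 0.0433) in every non-treated library. Among decoys of known length, those under 2 kb had a higher median log2 value than longer ones in every library. In WT the medians were 0.555 against 0.469 in replicate 1 and 0.504 against 0.318 in replicate 2. The part that length has in the values of decoys was not tested. Without decoys the excess over the 14 libraries was 0.019 (exact permutation test, p = 0.122), and the difference between the classes was -0.054 (exact permutation test, p = 0.0183).

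**Figure D2:**
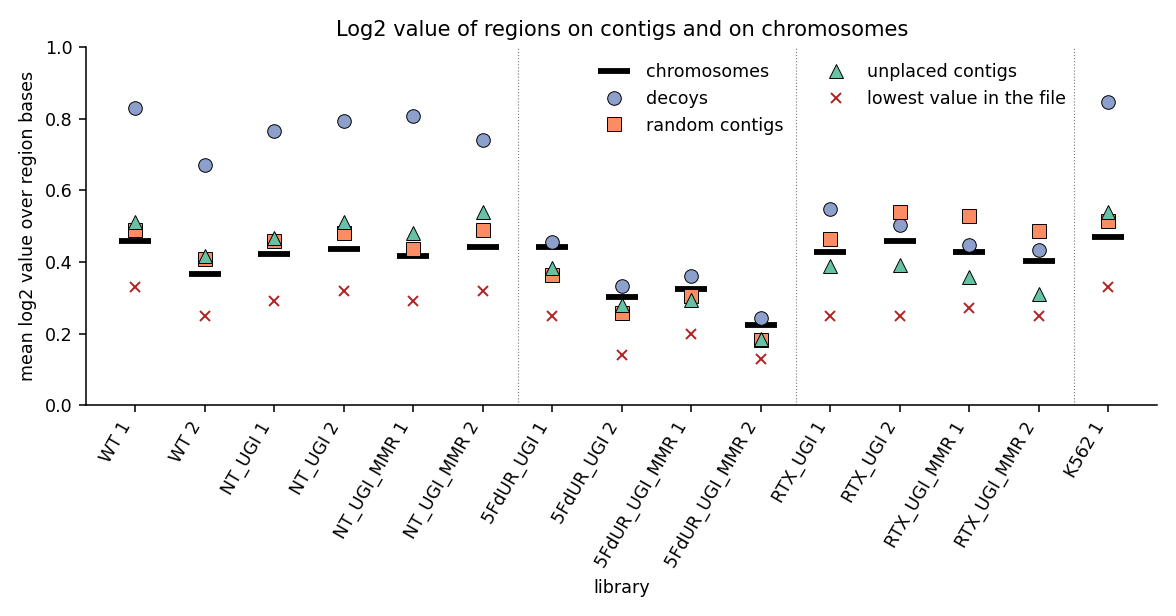
Mean log2 value over region bases, for chromosomes (bars) and the 3 kinds of contig (symbols), and the lowest value in each file (crosses), in 15 libraries. Decoys stand at 0.67 to 0.83 in the non-treated libraries and at 0.24 to 0.55 in the drug-treated libraries.

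The median length of contig regions was 1508 ± 56.3 bp in the 6 non-treated libraries and 1483 ± 94.3 bp in the 8 drug-treated ones (SD), a log2 difference of -0.026 within the spread of the libraries (exact permutation test, p = 0.594). The longest region in a non-treated library spanned the first 29200 bp of chrUn_KI270750v1 in WT replicate 1, at a log2 value of 0.62. The longest in a drug-treated library spanned 45100 bp of chr17_GL000205v2_random in 5FdUR_UGI_MMR replicate 1, at 0.43. The longest in K562 lay on chrUn_KI270749v1, from 34001 to 59000, at 0.71. The highest log2 value without drug was 3.42, on the whole of chrUn_JTFH01001987v1_decoy (2068 bp) in NT_UGI_MMR replicate 1, and the highest with drug was 3.29, on chrUn_JTFH01001433v1_decoy (1570 bp) in RTX_UGI replicate 1. In K562 it was 2.79, on chrUn_JTFH01001899v1_decoy (2551 bp).

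Which contigs carried the regions differed between the classes. The mean Jaccard index on contigs was 0.292 over pairs within a class and 0.0445 over the 48 pairs between classes, a difference of 0.25 (exact permutation test, one-sided, p = 0.000333, the lowest value 3003 splits can give). Pairs of non-treated libraries shared 0.427 to 0.550 and pairs of RTX libraries 0.371 to 0.562. The 6 pairs of 5FdUR libraries shared 0.0736 to 0.196, and the replicates of 5FdUR_UGI only 0.126. K562 shared 0.386 to 0.431 with the 6 non-treated HCT116 libraries and 0.0124 to 0.0847 with the 8 drug-treated ones.

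The share of region bases on each contig was then compared between the classes by exact permutation tests over all 1401 sequences with a region in at least 1 HCT116 library, chromosomes included, with Benjamini-Hochberg adjustment. Of the 1377 contigs among them, 111 were lower and 15 higher after treatment at an adjusted p under 0.05. Over all sequences, 8.49% were called lower and 1.71% higher, but most of these sequences are the contigs themselves. Of the 24 chromosomes, 33.3% (8) were called lower and 37.5% (9) higher. The share of contigs called lower was 29.7% of the random (11 of 37), 26.2% of the unplaced (11 of 42) and 6.86% of the decoys (89 of 1298). No random contig, 1 unplaced contig and 14 decoys were called higher. The number called higher is unstable: it was 38 without 5FdUR_UGI_MMR replicate 2 and 3 without any 1 of the 6 non-treated libraries. The number called lower stayed between 81 and 109 whichever library was left out, but it depends on the measure. A share is part of a total that was larger after treatment, with 11.1% of the chromosomes in regions without drug and 17.7% with drug on average. With covered bases in place of the share, far fewer contigs were called lower, as given in the last section. In windows of 10 kb, 73 of 1832 contig windows (3.98%) were covered less in every drug-treated than in any non-treated library, and 4 (0.218%) were covered more, or 7 without 5FdUR_UGI_MMR replicate 1 and 16 without its replicate 2. Over all 273371 windows of contigs and chromosomes these shares were 11.0% and 5.19%, so the pooled shares on contigs lay below those over all windows. By kind, 1.29% of decoy, 9.80% of random and 12.3% of unplaced windows were covered less.

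The 5 contigs with the largest loss of share were chrUn_KI270749v1, chrUn_KI270746v1, chrUn_KI270750v1, chr17_KI270729v1_random and chr22_KI270735v1_random, each with an adjusted p = 0.00765 from the exact permutation tests. None of them had a region in an RTX library, which is not particular to them. It held for 25 of the 30 random and unplaced contigs with a region in all 6 non-treated libraries. On chrUn_KI270749v1 (158759 bp, GC 37.1%), the non-treated libraries had 30800 bp to 54500 bp in regions, with a median of 36800 bp. The 5FdUR libraries had 21500 bp and 0 bp in the replicates 2 and 1 of 5FdUR_UGI, and 400 bp and 6200 bp in 5FdUR_UGI_MMR. K562 had 73900 bp there, its largest amount on any contig. The classes did not overlap.

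On chrUn_KI270746v1 (66486 bp, GC 35.3%), non-treated libraries had 23000 bp to 38900 bp, with a median of 30200 bp, K562 had 31100 bp, and the drug-treated libraries held 300 bp in all, in 5FdUR_UGI_MMR replicate 2. On chr22_KI270735v1_random (42811 bp, GC 36.4%), a contig assigned to chromosome 22, the covered part was 57.4% ± 3.60 (SD, n = 6) without drug and 59.8% in K562, and among drug-treated libraries 5FdUR_UGI replicate 2 alone had a region, of 1400 bp. On chrUn_KI270750v1 (148850 bp, GC 40.3%) the non-treated libraries had 23800 bp to 33700 bp, and 3 5FdUR libraries had 10800 bp, 5100 bp and 4600 bp. On chr17_KI270729v1_random (280839 bp, GC 37.3%), where 11.0% of the bases lie in tandem copies of the GGAAT pentamer, the non-treated libraries had 24200 bp to 32700 bp, and the same 3 5FdUR libraries had 9400 bp, 18300 bp and 3200 bp. These contigs were thus in regions of every non-treated HCT116 library and of K562.

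Of the 4 unplaced contigs with most region bases, chrUn_GL000218v1 and chrUn_GL000219v1 were also called lower (exact permutation tests, adjusted p = 0.0343 and 0.0165), but their 5FdUR libraries overlapped the non-treated ones. On chrUn_GL000218v1 the non-treated libraries had 14800 bp to 35100 bp, the 5FdUR libraries 2500 bp, 32900 bp, 26600 bp and 15900 bp, and the RTX libraries had no region. On chrUn_GL000219v1 the non-treated libraries had 15400 bp to 33700 bp, and the 5FdUR libraries 0 bp, 800 bp, 30698 bp and 24300 bp, again with no region in RTX.

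The 1 contig outside the decoys that was called higher was chrUn_GL000195v1 (182896 bp, GC 40.7%; exact permutation test, adjusted p = 0.00765), which also had most region bases of all unplaced contigs. The non-treated libraries had 5200 bp to 10500 bp in regions there, with a median of 7600 bp, and K562 had 9700 bp. The 5FdUR libraries had 46600 bp, 45600 bp, 48300 bp and 31800 bp, and the RTX libraries 38300 bp, 39700 bp, 43100 bp and 30600 bp. All 8 drug-treated libraries lay above all 6 non-treated libraries, at a covered part of 22.1% ± 3.64 (SD, n = 8) against 4.18% ± 1.10 (SD, n = 6). It was the single unplaced contig with a region in all 14 HCT116 libraries, yet no bin was in a region of all 14. The other contig found in all 14, chr17_GL000205v2_random (185591 bp, GC 41.6%), had 6500 bp to 12200 bp without drug, 8700 bp to 18500 bp with RTX and 22000 bp to 75000 bp with 5FdUR, and its share was not called (exact permutation test, adjusted p = 0.561).

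Of 9 random contigs of chromosome 1, 3 were mostly in regions after RTX, and the other 6 had no region in an RTX library and were covered to 0.966% to 35.9% on average without drug. Of the 3, chr1_KI270711v1_random had been singled out for its total of region bases, while chr1_KI270713v1_random and chr1_KI270714v1_random were chosen after their values were seen. On chr1_KI270711v1_random (42210 bp) the RTX libraries had 29700 bp, 33700 bp, 33700 bp and 30100 bp in regions, 5FdUR_UGI replicate 1 had 25400 bp, the other 5FdUR libraries had none, the non-treated libraries had 600 bp to 5100 bp, and K562 had 4000 bp. On chr1_KI270713v1_random (40745 bp) the RTX libraries had 25700 bp, 23700 bp, 31745 bp and 34545 bp and the 5FdUR libraries 19900 bp, 5800 bp, 3800 bp and 0 bp. On chr1_KI270714v1_random (41717 bp) the RTX libraries had 28400 bp, 26917 bp, 22117 bp and 26800 bp and the 5FdUR libraries 12600 bp, 6000 bp, 417 bp and 0 bp. Neither of the last 2 contigs had a region in a non-treated library or K562. Over all 8 drug-treated libraries none of the 3 passed the test (exact permutation tests, adjusted p = 0.379, 0.0543 and 0.0722).

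**Figure D3:**
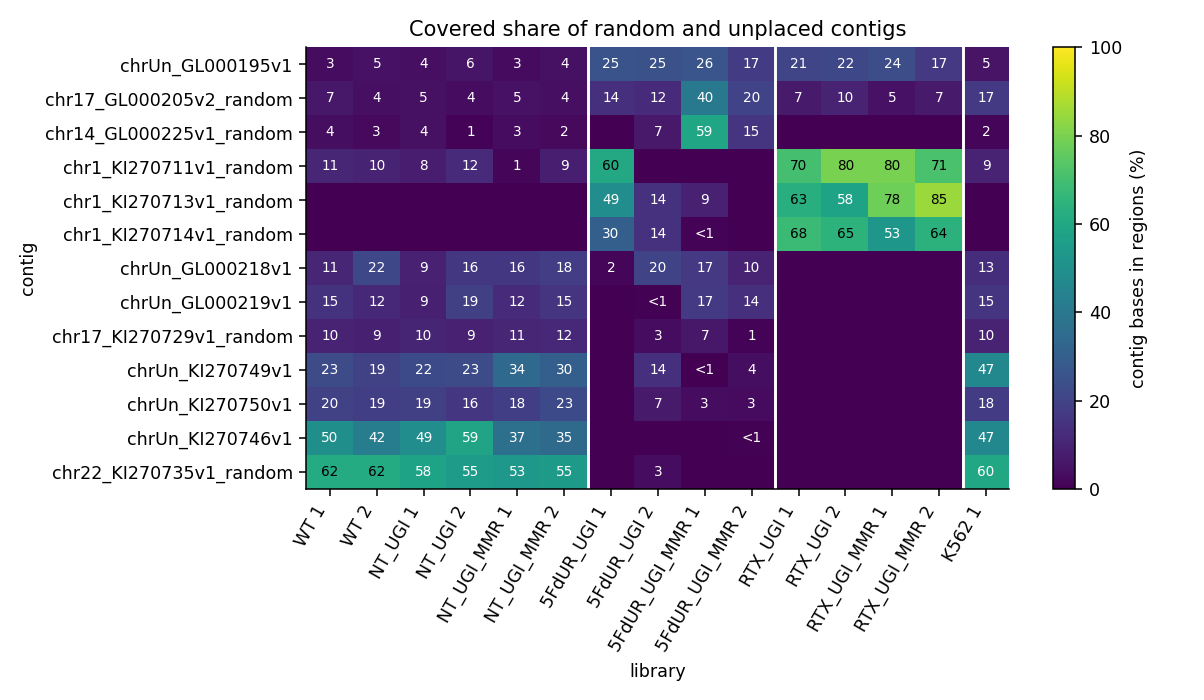
Percent of each contig's bases in regions, for 13 random and unplaced contigs (rows) in 15 libraries (columns), with the value printed where it is above 0. The 3 contigs of chromosome 1 shown are covered to 53% to 85% in the RTX libraries, and chrUn_KI270746v1 and chr22_KI270735v1_random to 35% to 62% in the non-treated libraries and K562.

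The GENCODE annotation file used here has no entries on these contigs, so GENCODE transcripts of protein-coding genes were matched to 6 of them, chosen after their values were seen. A match of at least 90% of a transcript at 95% identity or more marks a copy of the gene or a close relative of it. On chr1_KI270711v1_random, transcripts of 9 named members of the NBPF family, whose copies on chromosome 1 carry repeated Olduvai domains, matched the reverse strand, NBPF1 best with an identity of 99.5% from 4503 to 32444. That span was in regions to 90.2% in the RTX libraries (82.5% to 95%), to 16.9% in the 5FdUR libraries and to 0% in the non-treated libraries and K562. On chr1_KI270714v1_random the match of ESPN, which encodes the actin-bundling protein espin, was covered to 65.4% on average in the RTX libraries, with a range of 0% to 100%. On chr22_KI270734v1_random, transcripts of PRODH, the mitochondrial proline dehydrogenase, matched with an identity of 99.8% and were covered to 14.3% in the 5FdUR, 4.21% in the RTX and 0% in the non-treated libraries. The match of MORC4 on chr17_GL000205v2_random went the other way, at 22.3% in the non-treated libraries, 65.1% in K562 and 0% in the 5FdUR and RTX libraries. MST1 on chr1_KI270713v1_random was at 0% in the 5FdUR and 25% in the RTX libraries (0% to 100%). DGCR6, on the contig of PRODH, was at 0% in every library, and DGCR6L there at 5.25% in the 5FdUR and 0% in the other libraries. Copies of these sequences also lie on chromosomes, and unique mapping decides which copy a read is counted for.

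Ribosomal DNA lies on chrUn_GL000220v1 and chr22_KI270733v1_random. An exact search for the 5.8S rRNA gene RNA5-8SN1 (153 bases) found 2 copies on each. No library had a region within 10 kb of any of the 4 copies, although 8 libraries had regions elsewhere on chrUn_GL000220v1 and 14 on chr22_KI270733v1_random. Reads without a unique position and blacklisted segments had been removed, and ribosomal DNA is repeated. The absence of regions near these copies therefore cannot be read as an absence of uracil.

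Among decoys, the 4 with most region bases were chrUn_JTFH01001738v1_decoy, chrUn_JTFH01001739v1_decoy, chrUn_JTFH01001748v1_decoy and chrUn_JTFH01001754v1_decoy, and all were lower after treatment (exact permutation tests, adjusted p = 0.00765, 0.0117, 0.0188 and 0.00765). The first, of 9779 bp, was in a region from end to end in all 6 non-treated libraries and K562, in 5FdUR_UGI_MMR replicate 1, and in part or not at all in the other drug-treated libraries. The second had 8200 bp to 8400 bp in regions of the non-treated libraries at log2 values of 1.60 to 2.09, against 8200 bp at 1.05 and 7900 bp at 0.53 in the RTX_UGI libraries, 4200 bp at 0.37 in 5FdUR_UGI replicate 2 and none in the other 5 drug-treated libraries. The decoys with the largest gain of share were chrUn_KN707842v1_decoy, chrUn_KN707857v1_decoy, chrUn_KN707809v1_decoy and chrUn_KN707725v1_decoy, at adjusted p from 0.0323 to 0.0457 (exact permutation tests). None of the 4 had a region in a non-treated library or K562. chrUn_KN707842v1_decoy (6698 bp) was in a region from end to end in all 4 RTX libraries, at 0.49, 0.70, 0.49 and 0.69, and in both 5FdUR_UGI libraries, at 0.62 and 0.34, and 5FdUR_UGI_MMR had 200 bp in replicate 1 and none in replicate 2.

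These 4 decoys belong to the series of names that starts with KN707, which was set apart from the larger JTFH series after the values were seen. The KN707 series held 0.0133% to 0.0212% of region bases in the non-treated, 0.0197% to 0.0257% in the RTX and 0.0262% to 0.0542% in the 5FdUR libraries. The JTFH series held 0.0864% to 0.102%, 0.0360% to 0.0562% and 0.0396% to 0.172%, respectively. By share, the RTX libraries thus lay below the non-treated ones on JTFH decoys and reached from within to above their range on KN707 decoys. In bases the reading differs. JTFH decoys held 189.1 kb to 294.6 kb in the RTX and 286.5 kb to 333.2 kb in the non-treated libraries, ranges that overlapped. KN707 decoys held 103.6 kb to 132.5 kb and 44.2 kb to 69.1 kb, respectively, with every RTX library higher. The log2 value of JTFH decoys was 0.827 ± 0.0595 (SD, n = 6) without drug and that of KN707 decoys 0.462 ± 0.0438 (SD, n = 6). Single KN707 decoys reached up to 1.98 in a non-treated library, and JTFH decoys up to 3.42.

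Recurrence followed the same lines. Of the contigs, 98 had a region in all 6 non-treated libraries (68 decoys, 19 random and 11 unplaced), 90 of them also in K562 and 53 of them in no RTX library. All 30 random and unplaced contigs of that set had a region in K562. 67 contigs had a region in all 4 RTX libraries, 54 of them in no non-treated library. 36 had a region in all 4 5FdUR libraries, and 7 in all 8 drug-treated libraries. At the other end, 432 contigs, 421 of them decoys, had a region in 1 of 14 HCT116 libraries, and 683 had regions in 5FdUR libraries alone. Of the contig bases in a region of any non-treated library (1660.5 kb), 19.4% were in regions of all 6, against 9.50% on chromosomes. For RTX the shares were 20.2% of 949.3 kb on contigs and 29.7% on chromosomes, and for 5FdUR 0.984% of 3709 kb and 6.73%. No contig bin was in a region of all 14 libraries.

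Log2 values of 1 or more, a limit chosen after the values were seen, were reached on 83 contigs, 78 of them decoys, and on 16 contigs in all 6 non-treated libraries. The 16 are 14 decoys of the JTFH series and the unplaced chrUn_KI270336v1 and chrUn_KI270333v1, and 15 of them reached 1 in K562 too. They were chosen for high values without drug, so their presence there and their median of 1.91 to 2.11 in the non-treated libraries follow from the choice, as in part do lower values elsewhere. The median in K562 was 1.80. With RTX, 16 and 15 of the 16 had a region in the MMR deficient RTX_UGI libraries, at medians of 1.0 and 0.53, and 2 and 1 in RTX_UGI_MMR, at medians of 0.33 and 0.33. The thresholds of these 4 libraries were 0.25, 0.25, 0.27 and 0.25. This difference between 2 and 2 libraries was noticed in the values and was not tested. With 5FdUR 0 and 11 were present in 5FdUR_UGI and 0 and 4 in 5FdUR_UGI_MMR. chrUn_JTFH01001433v1_decoy had 2.19 and 2.80 in NT_UGI, 3.12 and 2.11 in NT_UGI_MMR, 3.29 and 3.24 in RTX_UGI, 0.38 and 0.33 in RTX_UGI_MMR and no region in any 5FdUR library. chrUn_JTFH01001506v1_decoy had 2.99 and 3.23 in RTX_UGI, 0.27 in RTX_UGI_MMR replicate 1 and no region in replicate 2.

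For the share of all contig region bases, a difference by MMR status was not detected. Over the 12 UGI libraries it was higher by 0.0150 percentage points in MMR proficient cells (exact permutation test within treatments, 216 splits, p = 0.861), and the sign turned without replicate 1 of 5FdUR_UGI (-0.00445), replicate 1 of 5FdUR_UGI_MMR (-0.0117), or replicate 1 (-0.00185) or 2 (-0.00307) of RTX_UGI.

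On the unplaced contigs with the unit of 42 bases, coverage was higher without drug, but not evenly. Of 5 such contigs, with 22.5% to 25.5% GC and 1026 to 3920 bases, 4 had regions, and on average 66.7% of their bases were in regions of the non-treated libraries, 87.7% in K562, 9.06% in the 5FdUR and 11.9% in the RTX libraries. The unit has the length and the AT-rich composition known for classical satellite I. chrUn_KI270336v1 had log2 values of 2.16, 2.0, 2.23, 2.65, 2.23 and 2.81 in the non-treated libraries and 2.25 in K562, against 0.84 and 0.59 in RTX_UGI, 0.52 in 5FdUR_UGI replicate 2 and no region in the other 5 drug-treated libraries. chrUn_KI270333v1 had 1.41 to 2.02 in the non-treated libraries and 2.56 in K562, against 0.35 in RTX_UGI replicate 1 and 0.19 in 5FdUR_UGI replicate 2. chrUn_KI270337v1 had 0.29 to 0.57 in 5 of the 6 non-treated libraries, 1.5 in K562 and no region in a drug-treated library, and chrUn_KI270466v1 had no region in any library. chrUn_KI270467v1 was uneven among the non-treated libraries, with 2.71 and 2.50 in NT_UGI_MMR, 0.32 in NT_UGI replicate 1, 0.31 in WT replicate 2 and no region in the other 2.

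The same motif was looked for on the chromosomes. ACTGTACATAAAATAT, on either strand, occurs 103 times on 5 contigs and 165 times on chromosomes, where 17 windows of 1 kb on 4 chromosomes hold at least 5 copies. Of these windows, 13 were in regions of each non-treated library, at median log2 values of 0.88 to 1.17, and 14 in K562, at 1.29. In RTX_UGI 13 and 6 were in regions, at 0.44 and 0.36, in RTX_UGI_MMR none, and among the 5FdUR libraries 4 in replicate 2 of 5FdUR_UGI, at 0.23. A match of these letters is a description of the sequence, not a binding site.

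Contigs of other repeats differed in how much they were covered. The 57 contigs with a repeat unit of 171 bases, the unit length of alpha satellite, held 1012 kb, and 45 of them had no region in any library. Their covered part was 0.205% in the non-treated, 0.752% in the 5FdUR and 0% in the RTX libraries, and 0.247% in K562. The 6 contigs in which GGAAT pentamers in tandem make up at least 10% of the bases were covered to 3.36% without drug, 4.03% with 5FdUR and 0% with RTX, and to 3.05% in K562. The 101 contigs in none of these classes were covered to 4.41%, 4.48%, 1.60% and 7.10%, respectively. A class of repeat unit took contigs with at least 50% of bases equal to the base a unit further on. Contigs short of that limit count among the 101, such as chrUn_KI270747v1, with 43.7% for the unit of 171 bases. That unit was read from the longest contig without a region, whose lack of coverage thus follows from the choice. The classes of repeat were set after the values were seen.

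The GC content of the covered bases separated the classes on contigs as on chromosomes. On random and unplaced contigs, whose GC content is 41.1%, region bases had a GC content of 34.4% to 34.9% in the non-treated libraries, 43.5% to 44.7% in the RTX libraries, 45.1% to 47.4% in the 5FdUR libraries and 34.6% in K562. On chromosomes, of 40.9% GC, the same libraries had 33.5% to 33.9%, 43.0% to 45.2%, 42.4% to 46.2% and 33.7%. In windows of 1 kb with under 30% GC, 22.5% of the bases were in regions without drug (19.6% to 24.5%), against 1.90% with 5FdUR and 1.48% with RTX. In windows of 45% to 50% GC these values were 0.967%, 8.70% and 2.72%, and in windows of 60% or more 0%, 11.1% and 1.15%. Non-treated libraries thus led up to 40% GC, 5FdUR exceeded them from 40% and RTX from 45%. Over the 60 random and unplaced contigs of at least 40 kb, Spearman's rho between GC content and covered part was -0.40 without drug, 0.53 with 5FdUR and 0.44 with RTX. It is given as a description, since the contigs share libraries and repeats.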

How the data were processed

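U-DNA-Seq was performed by the authors on enriched and input DNA of HCT116 and K562 cells, and the 15 enriched libraries with a region file were analysed, among 32 samples. With BWA 0.7.17-r1194 the authors mapped reads to GRCh38 and decoys, kept uniquely mapped reads outside blacklisted segments, computed coverage in bins of 100 bp with deepTools 3.2.1, and deposited the regions above a threshold set for each library with their log2 value. The build matched the reference used here, since all 96 regions on random and unplaced contigs that ended off the grid of bins ended at the contig's end.

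Groups came from the sample labels. Means over libraries were compared by two-sided exact permutation tests, with Benjamini-Hochberg adjustment over the 3 kinds of contig or over all 1401 sequences, and called at 0.05. The per-sequence test was run on simulated data for drug-treated against non-treated libraries. There, 200 of 200 sequences changed 4-fold were recovered and 9 unchanged ones were called. Every simulated library had bases on every sequence, whereas many contigs had no region in some libraries. Recovery and false calls for such contigs were therefore not tested. Of the contigs, 432 had a region in 1 of 14 HCT116 libraries. The 2 replicates of a condition share their number across conditions, but the deviations of replicate 1 correlated by over 0.1 in 2 of 21 pairs of conditions, so no pairing was used.

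Named contigs are the 4 of each kind with most region bases, the 5 called with the largest change of share in each direction, and the largest in K562. The members and lists were chosen with earlier results of these data known. Alternatives were regions of at least 1 kb, a log2 value of at least 0.35, no decoys, fewer libraries or conditions, a replicate block, other windows and measures, and the 7 merged files. Transcripts were matched with minimap2 2.31. Python 3.11.15, NumPy 2.4.6 and SciPy 1.17.1 were used. Read counts, coverage tracks, input and mock samples, and decoy sequences were not used here. Some stretches of sequence are not reported here.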

Additional observations from a re-analysis of the deposited data

Results flagged for a closer look

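Among 80 groups of libraries examined for a value far from the others by Dixon's criterion, 9 had one, all among the 8 drug-treated libraries. The share of 0.05 that this criterion gives by chance holds for values from a single normal distribution. The drug-treated libraries pool both drugs and hold many values of 0 bp, so the number found is not set against chance. 5FdUR_UGI_MMR replicate 1 was far above the others on chr14_GL000225v1_random, with 124300 bp in regions against 31400 bp, 14500 bp and none in the other 5FdUR libraries, on chr17_GL000205v2_random, with 75000 bp, and on chrUn_JTFH01001738v1_decoy, with 9779 bp. 5FdUR_UGI replicate 2 was far above the others on chrUn_KI270749v1, with 21500 bp, on chrUn_KI270750v1, with 10800 bp, and on chr22_KI270735v1_random, with 1400 bp. RTX_UGI replicate 1 was so on chrUn_JTFH01001754v1_decoy, with 6916 bp, and 5FdUR_UGI_MMR replicate 2 on chrUn_KI270746v1, with 300 bp. 5FdUR_UGI_MMR replicate 2, the library with the lowest threshold, was far below the others on chrUn_KN707725v1_decoy, with 0 bp where the other 7 drug-treated libraries covered all 2565 bp.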

How the results depend on the processing

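Of 140 values under settings that left out no single library, 93 kept their direction and their side of the threshold, or a count within 1.5 times. With a log2 value of at least 0.35, the share of contigs differed by 0.0344 percentage points, the number of contigs by -38.4 and the log2 median length by -0.21, with 1 contig called higher and 0 windows separated higher. With regions of at least 1 kb the length difference was -0.12. Without decoys the share differed by -0.0799, the number of contigs by -19.0, the length by 0.22, the log2 value within libraries by 0.019 and 5FdUR against RTX by 0.0636, with 3 contigs called higher, 24 lower and 1 window higher. In MMR deficient libraries the length differed by 0.010 and the share on random and unplaced contigs by -0.0364 and -0.0421, neither past the test, with 0 contigs called in either direction by the exact tests and 49 windows higher. The exact permutation test has 70 splits there and no p under 0.0286. After adjustment a contig could be called only if most sequences reached that value, so the 0 calls carry no information. Without WT the share on random contigs differed by -0.0363, with 3 contigs called higher. With RTX as the only drug the share differed by -0.154, the number of contigs by -32.3, the length by 0.016, the share on decoys by -0.0424 and MMR proficient from deficient cells by -0.00466, with 56 contigs and 68 windows higher. With 5FdUR as the only drug the share differed by 0.00500, the number of contigs by 247.9 and the share on random contigs by -0.0191. There, 0 contigs were called in either direction and 26 windows were higher. The exact permutation test has 210 splits with either drug alone and no p under 0.00476. After adjustment a contig could be called only if many sequences reached that value, so the 0 calls with 5FdUR do not show that no contig differed. In kb, the differences were 92.1 for all contigs, -46.6 for random and -100.2 for unplaced contigs. The filter on 6 libraries gave 45 contigs higher, covered bases gave 3 higher and 32 lower, and windows of 50 kb gave 39 lower. Without the 5FdUR libraries other than 5FdUR_UGI replicate 1, a setting chosen after seeing the data, the share differed by -0.154, the number of contigs by -33.9 and the share on decoys by -0.0430, with 37 contigs and 47 windows higher. The cause of these changes was not tested, except that fewer libraries or sequences were tested where they were left out.

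Leaving out each library in turn kept 183 of 202 values. The ranges were -0.101 to -0.0615 for the share, 61.7 to 133.1 for the number of contigs, -0.045 to 0.0017 for the length, -0.00963 to 0.0140 for decoys, 3 to 38 contigs higher, 4 to 16 windows higher, -0.0117 to 0.0480 for MMR status and 0.124 to 0.212 for 5FdUR against RTX. Replicate numbers did not pair the samples, and with the replicate as a block the tests of single values kept their side of the threshold (share, exact permutation p = 0.157), while 11 contigs were called higher and 110 lower, against 15 and 111. Depth was not used here to weigh any value.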
